A study of Mus musculus with 10 samples.

Results

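The genes described here build and run the eukaryotic DNA replication fork, from the proteins that mark an origin to the ligase that seals the new strand. They are 40 gene symbols of 9 complexes or steps, chosen by name and not by value, with earlier results of these data known. The study had reported DNA replication among the terms enriched in transcripts that fell in these *Dis3* cKO testes. The list is thus not independent of these data. All 40 were found by Ensembl gene ID among the 54232 genes of the count table. In background, a chromosome is copied from origins that the origin recognition complex (ORC) binds in G1. There CDC6 and CDT1 load the MCM2-7 ring, the inactive form of the replicative helicase, and in S phase CDC45 and the GINS complex join the ring and start unwinding. Polymerase alpha with its primase then lays down primers, the clamp loader RFC places the sliding clamp PCNA, polymerases epsilon and delta extend the leading and lagging strands, RPA covers single-stranded DNA, and FEN1 and LIG1 join the lagging strand fragments. In the newborn testis, germ cells leave their fetal cell cycle arrest and start to divide while Sertoli and other somatic cells also proliferate.

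RNA was taken from whole testes at postnatal day 4 (P4), with both testes of 1 mouse in each library and 5 libraries per genotype. Mice were labelled as strain B6D2F1 inbred. Control mice (labelled *Dis3* WT) were their littermates, and *Dis3* cKO mice (labelled *Dis3* KO) were, by the study's own description, *Dis3* F/− and carried *Ddx4*-Cre. This Cre is driven by the promoter of a germ cell gene and acts in male germ cells from before birth, so that somatic cells of *Dis3* cKO testes kept 1 floxed allele and also carried 1 deleted allele. DIS3 is a ribonuclease of the RNA exosome. The floxed and Cre alleles of the control mice are not given in the labels. In such bulk samples, fewer cells of a type and less RNA per cell cannot be told apart.

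Gene counts per library ranged from 28538849 to 41104912. *Dis3* itself had 4115, 4296, 4314, 5161 and 5091 normalized counts (read counts scaled to the average library by TMM-adjusted depth) in control replicates 1 to 5 and 1385, 1372, 1362, 1640.5 and 1709 in *Dis3* cKO replicates 1 to 5, and no library went against its label (log2 fold change -1.62, standard error 0.09, adjusted p = 3.78e-07 from edgeR). Replicates 1 to 3 and replicates 4 and 5 stood apart from each other in both groups. The chi-square per degree of freedom between libraries of one group was at most 22.9 within these sets and at least 24.8 between them, and neither the labels nor the study's methods name what separates them. The division was narrow for *Dis3* cKO replicate 1, with 18.75 and 22.85 against replicates 2 and 3 and 24.81 and 27.33 against replicates 4 and 5. Results that rest on these sets are given within each.

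All 40 genes passed the filter on low counts. In *Dis3* cKO testes 11 of them fell and none rose at an adjusted p under 0.05 (edgeR's quasi-likelihood test, two-sided, Benjamini-Hochberg adjustment over 20043 genes). This was 27.5% of the members, whereas 3.48% of all tested genes were called lower and 4.42% higher. The genes that fell were *Orc1*, *Orc2* and *Orc6* of the origin recognition complex, *Cdc45*, *Gins1*, *Gins2* and *Gins4* of the helicase activation step, *Prim2*, *Rfc3*, *Rpa2* and *Lig1*. Their changes were modest, from -0.61 for *Orc6* to -0.27 for *Lig1* on the log2 scale. The log2 fold change was below 0 for 36 of the 40, against 52% of all genes tested, and the exceptions were *Pola1*, *Pold2*, *Pole* and *Rfc1*. The median over the members was -0.23, against -0.01 over all genes. At an unadjusted p under 0.05, 25 members were lower (12.1% of all genes) and 2 were higher (11.8% of all genes), and DESeq2 called 11 lower (4.43% of all genes) and 1, *Pole*, higher (6.22%). Every *Dis3* cKO library lay below every control library for 12 members (4.31% of all genes), and above for 1 (4.59% of all genes). The number of members that fell was 7 without control replicate 5, where 1.96% of all genes were lower, and 7 once each library's trend over gene length was removed, where 2.69% were, and 23 with the replicate set as a further term, where 8.33% were.

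**Figure D1:**
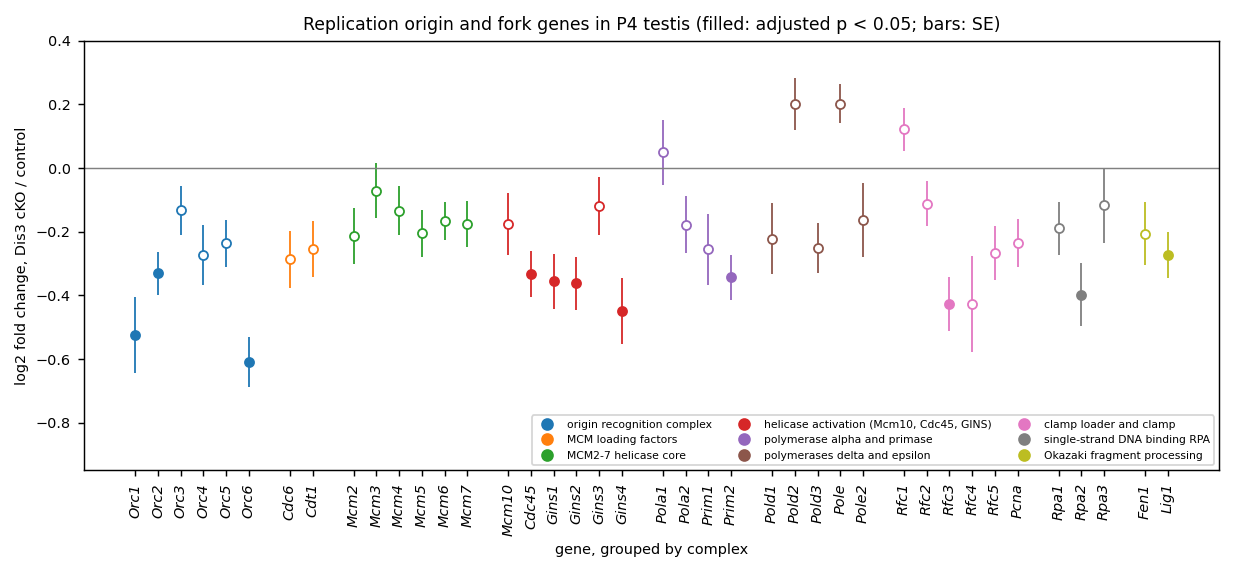
Log2 fold change of *Dis3* cKO over control testes at P4 (vertical axis) for the 40 replication genes, grouped and coloured by complex, with bars for the standard error and filled points for an adjusted p under 0.05 (n = 5 libraries per group). The 11 filled points lie between -0.61 and -0.27, the 6 genes of the MCM2-7 ring between -0.21 and -0.07 and all open, and 4 genes lie above 0.

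The sequences printed next show the promoter letters that many of these genes share, in a pair of genes that fell and hold an E2F site (*Orc1*, *Rfc3*), in 1 helicase gene that holds several and did not pass the test (*Mcm6*), and in a pair that fell and hold none (*Orc6*, *Rpa2*). E2F factors are known as transcriptional regulators of replication genes at the entry to S phase. Each sequence is the RefSeq promoter window of GRCm38.p6, 250 bases before to 50 bases after the gene's start, written 5′ to 3′ on the gene's strand, with matches to the E2F letters (TTTCCCGC, TTTCGCGC, TTTGCCGC or TTTGGCGC, on either strand) and to CCAAT on either strand in capitals. The windows lie at chr4:108579204-108579503, plus strand (*Orc1*), chr5:151651159-151651458, minus strand (*Rfc3*), chr1:128359656-128359955, minus strand (*Mcm6*), chr8:85299382-85299681, plus strand (*Orc6*) and chr4:132768110-132768409, plus strand (*Rpa2*).
Orc1: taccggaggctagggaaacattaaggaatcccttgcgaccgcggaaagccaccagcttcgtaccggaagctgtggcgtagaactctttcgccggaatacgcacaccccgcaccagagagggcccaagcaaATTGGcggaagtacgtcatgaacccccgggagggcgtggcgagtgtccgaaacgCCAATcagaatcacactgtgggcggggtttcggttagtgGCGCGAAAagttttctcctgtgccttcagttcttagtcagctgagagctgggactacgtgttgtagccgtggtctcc
Rfc3: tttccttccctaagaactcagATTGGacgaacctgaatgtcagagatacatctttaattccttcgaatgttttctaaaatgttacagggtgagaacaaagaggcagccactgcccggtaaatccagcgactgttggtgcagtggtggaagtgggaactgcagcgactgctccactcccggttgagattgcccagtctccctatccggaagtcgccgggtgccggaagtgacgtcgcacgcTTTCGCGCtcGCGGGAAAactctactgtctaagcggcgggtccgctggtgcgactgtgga
Mcm6: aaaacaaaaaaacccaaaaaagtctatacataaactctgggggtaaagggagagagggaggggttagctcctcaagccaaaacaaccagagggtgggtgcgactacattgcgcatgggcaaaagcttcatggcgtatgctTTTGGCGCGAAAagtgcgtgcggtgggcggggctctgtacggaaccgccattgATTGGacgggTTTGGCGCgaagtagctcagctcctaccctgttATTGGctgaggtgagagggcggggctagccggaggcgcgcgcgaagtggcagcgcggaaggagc
Orc6: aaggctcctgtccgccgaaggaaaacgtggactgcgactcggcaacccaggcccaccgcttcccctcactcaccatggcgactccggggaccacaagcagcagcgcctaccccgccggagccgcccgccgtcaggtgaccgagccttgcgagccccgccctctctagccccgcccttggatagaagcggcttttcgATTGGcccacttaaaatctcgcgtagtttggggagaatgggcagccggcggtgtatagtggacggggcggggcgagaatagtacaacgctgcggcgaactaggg
Rpa2: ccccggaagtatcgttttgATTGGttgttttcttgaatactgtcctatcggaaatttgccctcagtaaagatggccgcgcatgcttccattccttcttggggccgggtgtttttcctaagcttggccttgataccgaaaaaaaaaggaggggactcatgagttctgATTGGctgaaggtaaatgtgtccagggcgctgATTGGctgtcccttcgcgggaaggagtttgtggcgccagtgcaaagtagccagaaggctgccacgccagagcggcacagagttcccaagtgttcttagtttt

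Windows were found for 33 of the 40 members by symbol. Entries for *Gins1*, *Gins2*, *Gins4*, *Mcm4*, *Pole*, *Prim2* and *Rfc2* were not matched. *Fen1*, *Lig1*, *Mcm7*, *Orc2*, *Orc4* and *Pold2* had several windows, and a gene was counted if any of its windows held a match. An E2F match stood in a window of 15 of the 33 members (45.5%), and in 2.6% of the 27025 genes with a window. *Lig1* and *Mcm7* each held it in only some of their windows. The 15 were *Orc1*, *Orc3*, *Cdc6*, *Cdt1*, *Mcm3*, *Mcm5*, *Mcm6*, *Mcm7*, *Gins3*, *Pola1*, *Pold1*, *Pold3*, *Pole2*, *Rfc3* and *Lig1*. Counted from the 5′ end of the window, the match began at base 224 in *Orc1*, at bases 241 and 251 in *Rfc3*, and at bases 141, 145 and 204 in *Mcm6*, of which the first pair overlap. CCAAT, the letters of the NF-Y site, stood in a window of 21 members (63.6%, against 41.1% of genes), and GGGCGG, a core of the Sp1 site, in that of 25 (75.8%, against 38.2%). The letters TTTGAA or TTCGAA, the core of the cell cycle homology region, stood in a window of 7 members (21.2%, against 21.7%). Of the members that fell, 3 of 7 with a window held an E2F match, and of the other members 12 of 26. A match of letters is a description of the window and not a bound site.

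Origin recognition held the genes with the largest falls, *Orc6* and *Orc1*, beside 3 genes that did not pass the test. ORC is a complex of ORC1 to ORC5 with ORC6, and ORC1 is a subunit whose protein level is known to follow the cell cycle. *Orc6* (ENSMUSG00000031697.12, chr8:85299632-85308278, plus strand) had normalized counts of 1314, 1248, 1186, 1387 and 1330.5 in control replicates 1 to 5 and 926, 836, 744, 847 and 886 in *Dis3* cKO replicates 1 to 5. All *Dis3* cKO libraries lay well below all control libraries, and *Orc6* fell by 34.4% on the group means, from 1293 ± 77.8 to 848 ± 68 (SD, n = 5; log2 fold change -0.61, standard error 0.08, adjusted p = 0.000805 from edgeR). It had the lowest adjusted p of the 40. *Orc1* (ENSMUSG00000028587.18, chr4:108579423-108614833, plus strand) had 559, 561, 559, 655 and 639 in control replicates 1 to 5 and 447, 454, 486, 311 and 367 in *Dis3* cKO replicates 1 to 5. Here too the groups did not overlap, with the lowest values in *Dis3* cKO replicates 4 and 5 and the highest in control replicates 4 and 5, and the mean fell by 30.5%, from 594 ± 47.9 to 413 ± 71.9 (SD, n = 5; log2 fold change -0.52, standard error 0.12, adjusted p = 0.0176 from edgeR). *Orc2* (ENSMUSG00000026037.14, chr1:58462771-58505109, minus strand), which encodes a core subunit, had 1852, 1879.6, 1821, 2154 and 2032 in control replicates 1 to 5 and 1656, 1506, 1533, 1521 and 1525 in *Dis3* cKO replicates 1 to 5. The highest *Dis3* cKO library, replicate 1, was below the lowest control library, replicate 3, and the mean fell by 20.5% (log2 fold change -0.33, standard error 0.07, adjusted p = 0.00963 from edgeR). The other 3 ORC genes did not pass the test over all 10 libraries. *Orc5* lay at -0.24 on the log2 scale (adjusted p = 0.0617 from edgeR) with groups that did not overlap, and *Orc4* lay at -0.27 and *Orc3* at -0.13, both with overlapping groups. With the replicate set as a further term, *Orc4* and *Orc5* were called lower as well (adjusted p = 0.0112 and 0.0262 from edgeR). The calls of *Orc1* and *Orc2* were lost within replicates 1 to 3 alone (adjusted p = 0.103 and 0.0593 from edgeR; 3.48e-05 to 0.103 and 0.000346 to 0.0593 over all 18 alternatives), and that of *Orc6* was kept under all 18.

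**Figure D2:**
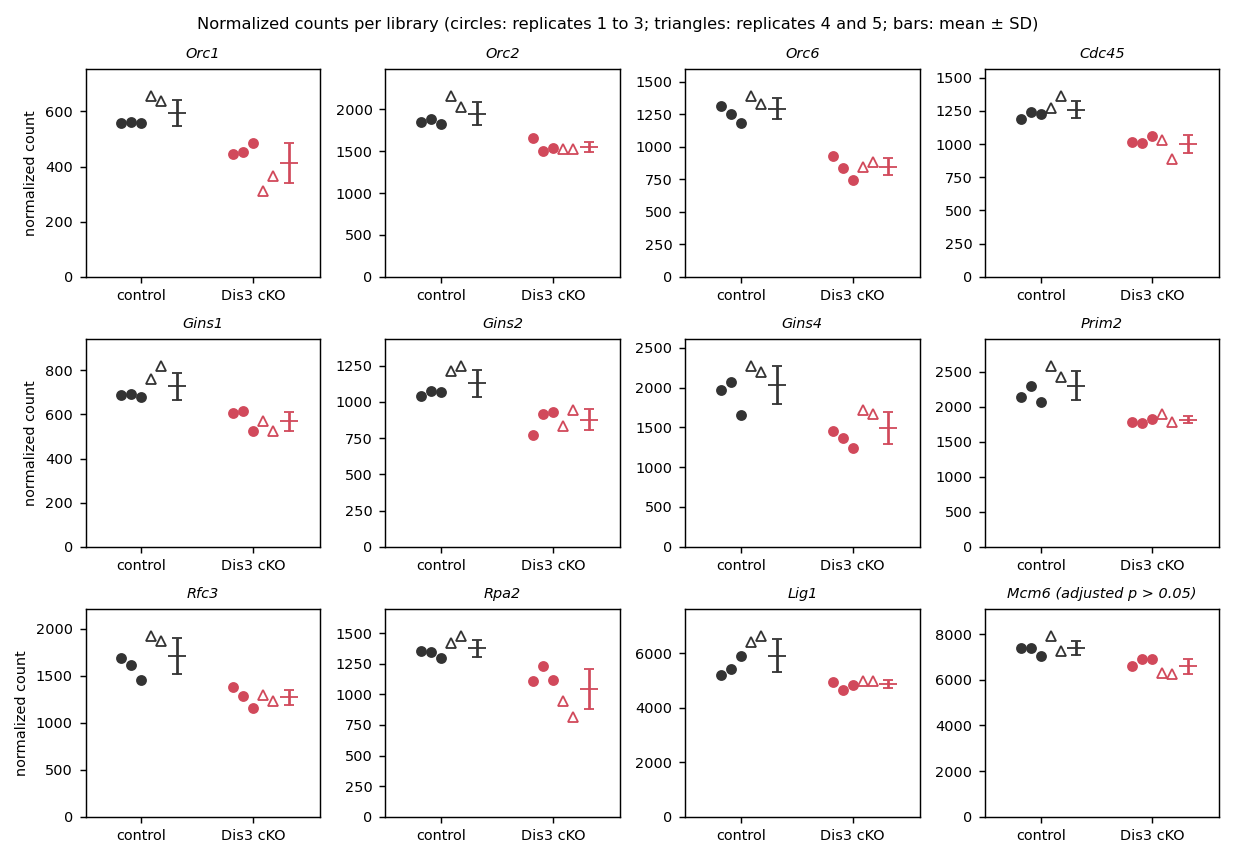
Normalized counts (vertical axes, from 0) in each control (black) and *Dis3* cKO (red) library for the 11 replication genes that fell and for *Mcm6*, which did not pass the test, where circles mark replicates 1 to 3, triangles mark replicates 4 and 5 and bars give the mean and SD (n = 5). The groups do not overlap in any panel but that of *Gins4*, and the open control triangles lie above the control circles in every panel but that of *Mcm6*.

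The genes that load the helicase and encode its ring gave no call over all 10 libraries. Neither of the loading factors passed the test, nor did DESeq2 call them, although both were lower at an unadjusted p under 0.05. *Cdc6*, the ATPase that brings CDT1 and MCM to ORC, had normalized counts of 851, 929, 968, 1064 and 1046 in control replicates 1 to 5 and 868, 800.4, 874, 702 and 739 in *Dis3* cKO replicates 1 to 5. Control and *Dis3* cKO values met between 851 and 874, in control replicate 1 and *Dis3* cKO replicates 1 and 3, while the values of *Dis3* cKO replicates 4 and 5 lay below all others (log2 fold change -0.29, standard error 0.09, adjusted p = 0.0661 from edgeR). *Cdt1* lay at -0.26 on the log2 scale (adjusted p = 0.0944 from edgeR). None of the 6 genes of the MCM2-7 ring was called by edgeR or by DESeq2, and 4 of them were lower at an unadjusted p under 0.05. Their log2 fold changes spanned -0.21 (*Mcm2*) to -0.07 (*Mcm3*), a span narrower than that of ORC. *Mcm6* (ENSMUSG00000026355.11, chr1:128331590-128359664, minus strand) had 7401, 7372, 7041, 7902 and 7262 in control replicates 1 to 5 and 6588, 6924, 6909.7, 6316 and 6232 in *Dis3* cKO replicates 1 to 5. Its groups did not overlap, with *Dis3* cKO replicate 2 just below control replicate 3, and the adjusted p was 0.102 from edgeR (log2 fold change -0.17, standard error 0.06). The replicate sets bear on this, since *Cdc6*, *Cdt1*, *Mcm5* and *Mcm6* were called lower with the set as a further term (adjusted p = 0.0315, 0.0324, 0.0380 and 0.0405 from edgeR). All 8 loading and ring genes were called lower within replicates 4 and 5 alone, a test of 2 libraries per group. *Mcm7* shares 2 stretches of its exons on the same strand with the microRNA genes *Mir25* and *Mir93* (1.90% and 1.99% of its exon bases), so a part of its reads could not be assigned. The same holds for *Pole2* (8.50%, with *Gm49384*), *Orc5* (1.46%, with *Gm15421*) and *Rpa1* (0.789%, with an unnamed gene).

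Helicase activation held the largest share of genes that fell, 4 of 6. CDC45 and the 4 GINS subunits turn the loaded ring into the moving CMG helicase. *Gins4* (ENSMUSG00000031546.6, chr8:23226616-23237659, minus strand), which encodes the subunit also called SLD5, had normalized counts of 1975, 2076, 1661, 2266 and 2199 in control replicates 1 to 5 and 1450.3, 1364, 1247, 1724 and 1668 in *Dis3* cKO replicates 1 to 5. Its mean fell by 26.8% (log2 fold change -0.45, standard error 0.10, adjusted p = 0.0184 from edgeR), although control replicate 3 lay below *Dis3* cKO replicates 4 and 5. Within each replicate set the groups of *Gins4* did not overlap. *Cdc45* (ENSMUSG00000000028.15, chr16:18780447-18811987, minus strand) had 1191, 1244, 1228, 1273 and 1359.9 in control replicates 1 to 5 and 1019.6, 1006, 1058, 1031 and 887 in *Dis3* cKO replicates 1 to 5, so that no *Dis3* cKO library reached the lowest control (log2 fold change -0.33, standard error 0.07, adjusted p = 0.0134 from edgeR). *Gins2* (ENSMUSG00000031821.11, chr8:120578633-120589304, minus strand) had 1037, 1076, 1069, 1213 and 1244 in control replicates 1 to 5 and 771, 912, 932, 831 and 939.9 in *Dis3* cKO replicates 1 to 5, also without overlap (log2 fold change -0.36, standard error 0.08, adjusted p = 0.0185 from edgeR). *Gins1* (ENSMUSG00000027454.10, chr2:150905400-150931280, plus strand) had 686, 695, 677, 761 and 818 in control replicates 1 to 5 and 606, 613, 524, 569 and 527 in *Dis3* cKO replicates 1 to 5, again without overlap (log2 fold change -0.36, standard error 0.09, adjusted p = 0.0233 from edgeR). On the group means *Cdc45* fell by 20.6%, *Gins2* fell by 22.2% and *Gins1* fell by 21.9%. The remaining GINS gene, *Gins3*, did not pass the test (log2 fold change -0.12, adjusted p = 0.469 from edgeR), nor did *Mcm10* (-0.18, adjusted p = 0.294 from edgeR), whose product helps to start unwinding. The call of *Gins1* was lost without control replicate 4 or 5 or *Dis3* cKO replicate 3 or 5 (adjusted p = 0.0550, 0.0626, 0.0556 and 0.0599 from edgeR) and that of *Gins2* without control replicate 5 (adjusted p = 0.0512); over all alternatives the adjusted p ranged from 0.00241 to 0.158 and from 0.00161 to 0.0818. The calls of *Gins4* and *Gins1* were also lost once the trend over gene length was removed (adjusted p = 0.0512 and 0.0635 from edgeR), and those of *Cdc45*, *Gins1* and *Gins2* within replicates 1 to 3 alone.

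Among the polymerases, 1 of 4 genes of polymerase alpha and primase fell and none of 5 genes of polymerases delta and epsilon did. *Prim2* (ENSMUSG00000026134.11, chr1:33453810-33669795, minus strand), the large primase subunit, had normalized counts of 2143, 2291, 2059, 2574 and 2421 in control replicates 1 to 5 and 1779, 1769.8, 1824, 1895 and 1786 in *Dis3* cKO replicates 1 to 5. The *Dis3* cKO libraries of *Prim2* lay close together and all below control, and the gene fell by 21.2% (log2 fold change -0.34, standard error 0.07, adjusted p = 0.00988 from edgeR), a call kept under all 18 alternatives. Its partner *Prim1*, the catalytic subunit, had a similar log2 fold change of -0.26 but a wider spread in control (2709 ± 514, SD, n = 5; adjusted p = 0.177 from edgeR). *Pola2*, the accessory subunit, had -0.18, and *Pola1*, the catalytic subunit, 0.05 (adjusted p = 0.249 and 0.822 from edgeR). *Pole* (chr5:110286306-110337474, plus strand), the catalytic subunit of the leading strand polymerase, ran the other way, with 3691, 3686, 3893, 3713 and 3949 in control replicates 1 to 5 and 4194, 4515, 4773, 4032 and 4269 in *Dis3* cKO replicates 1 to 5. Every *Dis3* cKO library of *Pole* was above every control library, and the mean was 15.1% higher (log2 fold change 0.20, standard error 0.06, adjusted p = 0.0599 from edgeR). It did not pass the test in the analysis of all 10 libraries by edgeR with TMM factors, and it passed with DESeq2 (adjusted p = 0.0268) and under 6 other alternatives, among them without control replicate 3 or *Dis3* cKO replicate 4 (adjusted p = 0.0484 and 0.0484 from edgeR). Over all 18 alternatives its adjusted p ranged from 0.0208 to 0.421 (both from edgeR). The highest came once the trend over gene length was removed, where the log2 fold change of *Pole* was 0.10. *Pold2*, a small subunit of polymerase delta, lay at 0.20 on the log2 scale (adjusted p = 0.155 from edgeR), while *Pold3*, *Pold1* and *Pole2* had -0.25, -0.22 and -0.16. With the replicate set as a further term, *Prim1* and *Pold3* were called lower (adjusted p = 0.0468 and 0.0282 from edgeR).

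Of the clamp loader and the clamp, 1 of 6 genes fell. *Rfc3* (ENSMUSG00000033970.15, chr5:151642756-151651242, minus strand), a small subunit of the loader, had normalized counts of 1687, 1616, 1451, 1921 and 1867 in control replicates 1 to 5 and 1378, 1290.4, 1155, 1293 and 1235 in *Dis3* cKO replicates 1 to 5. No *Dis3* cKO library reached the lowest control library, replicate 3, and the mean fell by 25.6% (log2 fold change -0.43, standard error 0.08, adjusted p = 0.00856 from edgeR). *Rfc4* had the same log2 fold change of -0.43 with 1219.5 ± 301 normalized counts in control (SD, n = 5), where replicates 4 and 5 (1582 and 1468) stood above replicates 1 to 3 (866 to 1161), and it did not pass (adjusted p = 0.0980 from edgeR). *Rfc5* and *Rfc2* had -0.27 and -0.11, and *Rfc1*, the large subunit, 0.12, none past the threshold. *Pcna*, which encodes the clamp itself, lay at -0.23 on the log2 scale (adjusted p = 0.0702 from edgeR), and the annotation lists processed copies (*Pcna-ps1* and *Pcna-ps2*) with which its reads may be shared. With the replicate set as a further term, *Rfc4*, *Rfc5* and *Pcna* were called lower (adjusted p = 0.0114, 0.0317 and 0.0221 from edgeR). The call of *Rfc3* was lost within replicates 1 to 3 alone (adjusted p = 0.0505 from edgeR; 4.13e-05 to 0.0505 over all alternatives).

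RPA and the Okazaki fragment enzymes gave 1 gene each. *Rpa2* (ENSMUSG00000028884.14, chr4:132768332-132778752, plus strand), the middle RPA subunit and the one phosphorylated after replication stress, had normalized counts of 1350.4, 1348, 1296, 1415 and 1473 in control replicates 1 to 5 and 1111, 1232, 1120.3, 942 and 816 in *Dis3* cKO replicates 1 to 5. The groups did not overlap, *Dis3* cKO replicates 4 and 5 were the lowest libraries, and the mean fell by 24.1% (log2 fold change -0.40, standard error 0.10, adjusted p = 0.0270 from edgeR). *Rpa1* and *Rpa3* had -0.19 and -0.12 without passing the test. *Lig1* (ENSMUSG00000056394.17, chr7:13277283-13311433, plus strand), the ligase of the lagging strand, had 5219.7, 5414, 5892, 6407 and 6623 in control replicates 1 to 5 and 4963, 4665, 4821, 4999 and 4999.5 in *Dis3* cKO replicates 1 to 5. The *Dis3* cKO libraries of *Lig1* spanned less than the control libraries and lay below all of them, and the mean fell by 17.3% (log2 fold change -0.27, standard error 0.07, adjusted p = 0.0342 from edgeR). *Fen1*, the flap nuclease, had -0.21 (adjusted p = 0.225 from edgeR). Both calls depended on single libraries. That of *Rpa2* was lost without control replicate 1, 2, 4 or 5 or *Dis3* cKO replicate 4 or 5, and that of *Lig1* without any 1 library other than control replicates 1 and 2, with an adjusted p of 0.0206 to 0.0664 and 0.0292 to 0.0880 when 1 library was left out (edgeR). Both were also lost once the trend over gene length was removed (adjusted p = 0.0534 and 0.0599 from edgeR) and within replicates 1 to 3 alone, while *Fen1* was called lower with the replicate set as a further term (adjusted p = 0.0334 from edgeR).

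The RNA levels themselves, per length, differed more between the genes than any gene differed between genotypes. On the scale of CPM (counts relative to library size) per kilobase of exon, the control level was highest for *Mcm4* (72.1 ± 8.21, SD, n = 5), *Pcna* (65.4 ± 2.84), *Mcm3* (49.9 ± 3.78), *Mcm6* (45.7 ± 1.95) and *Gins4* (43.5 ± 5.07), of which *Mcm4* and *Pcna*, and *Mcm3*, *Mcm6* and *Gins4*, differed by less than their SDs together. It was lowest for *Orc4* (4.07 ± 0.482), *Orc5* (4.16 ± 0.245), *Mcm10* (4.54 ± 0.225), *Pole2* (4.63 ± 0.720) and *Orc1* (4.93 ± 0.397), again with SDs that met between neighbours. The length used was the deposited one over all annotated exon bases of a gene, 7458 for *Orc4* and 1349 for *Gins4*. The length of the transcripts present was not measured. By normalized counts not divided by length, *Orc4* (control mean 1052.5) lay above *Orc1* (594.5). The order of genes in this paragraph depends on that length, which the SDs do not cover. Within ORC the control level ran from that of *Orc4* to that of *Orc6* (15.1 ± 0.908). GINS, whose 4 proteins stand in equal number in the complex, had control RNA levels from 5.10 ± 0.476 (*Gins3*) to that of *Gins4*. The 6 MCM2-7 genes were all above every ORC gene, at 24.2 ± 1.21 (*Mcm2*) or more. In *Dis3* cKO testes the level of *Orc6* was 9.90 ± 0.794, that of *Gins4* 31.8 ± 4.31 and that of *Mcm4* 65.7 ± 2.91, so that the order of these genes was kept.

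**Figure D3:**
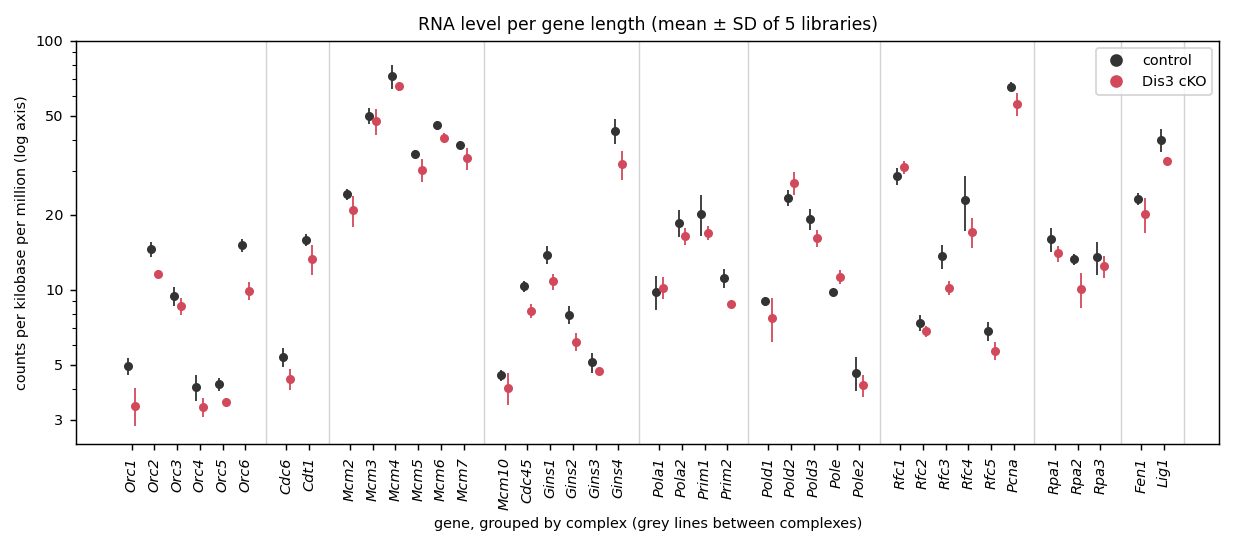
RNA level per gene length (vertical axis, CPM per kilobase of exon, log scale) of the 40 replication genes in control (black) and *Dis3* cKO (red) testes, as mean and SD of 5 libraries. *Mcm4* and *Pcna* lie highest and *Orc4* lowest in both groups.

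Results differed between the replicate sets, a division chosen with earlier results of these data known. Within replicates 4 and 5 alone, 32 of the 40 genes were called lower and none higher, where 11.7% of all genes were called lower and 11.7% higher. That test had 2 libraries per group, which lay close together, with a chi-square per degree of freedom of 4.93 in control and 8.70 in *Dis3* cKO. Between the sets this value was at least 24.8. Calls within replicates 4 and 5 thus rest on a smaller spread than calls over all 10 libraries, where 3.48% of all genes were lower. Within replicates 1 to 3 alone, *Orc6*, *Gins4* and *Prim2* were called lower (2.74% of all genes) and *Pole* higher (4.8% of all genes). The median log2 fold change of the members was -0.39 within replicates 4 and 5 and -0.11 within replicates 1 to 3. The interaction of genotype and set, fitted in edgeR, was below 0 (a lower effect in replicates 4 and 5) for 38 of the 40 genes, against 52% of all genes tested. *Orc5* and *Gins4* were the exceptions.

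This interaction passed the test for 4 members, all in this direction, whereas 2.02% of all genes were called in this direction. The differences were -0.66 for *Orc1* (adjusted p = 0.0192), -0.51 for *Rpa2* (adjusted p = 0.0227), -0.48 for *Mcm10* (adjusted p = 0.0307) and -0.38 for *Mcm4* (adjusted p = 0.0192) on the log2 scale. *Mcm10* had normalized counts of 1117, 1202, 1215, 1258 and 1268 in control replicates 1 to 5 and 1152, 1192, 1203, 846 and 973 in *Dis3* cKO replicates 1 to 5. The groups of *Mcm10* overlapped in replicates 1 to 3 and were apart in replicates 4 and 5. *Mcm4* had 8139, 8119, 8437, 10085 and 10081 in control replicates 1 to 5 and 8153, 8673, 8323, 8042 and 7688 in *Dis3* cKO replicates 1 to 5. For *Mcm4* the control libraries of replicates 4 and 5 were the highest of all, while the *Dis3* cKO libraries of both sets lay within 7688 and 8673. *Orc6* and *Pcna* had nearly the same effect in both sets, with -0.58 and -0.64 for *Orc6* and -0.21 and -0.26 for *Pcna* within replicates 1 to 3 and within replicates 4 and 5. The number of members called by the interaction was 0 without control replicate 4 or 5 (0.81% and 0.894% of all genes) and 9 without *Dis3* cKO replicate 1 (3.15%), and it was 1 or 2 without control replicate 1 or 2 or *Dis3* cKO replicate 2, 4 or 5.

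The difference between the sets lay in the libraries of both genotypes. The median over the 40 genes of the log2 ratio to the control mean was 0.09 and 0.09 in control replicates 4 and 5 and -0.03, -0.05 and -0.08 in control replicates 1, 2 and 3. In *Dis3* cKO replicates 1 to 5 it was -0.24, -0.16, -0.13, -0.27 and -0.29. All 5 *Dis3* cKO libraries were thus below all 5 control libraries on this measure, and 33 to 36 of the 40 genes lay below the control mean in each of them, against 29, 30, 33, 10 and 6 in control replicates 1 to 5.

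**Figure D4:**
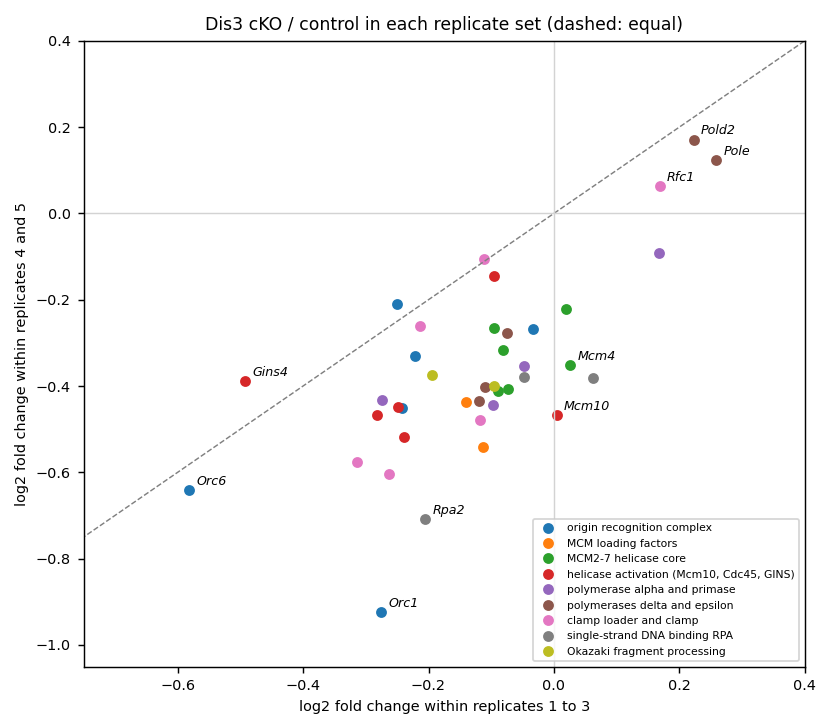
Log2 fold change of *Dis3* cKO over control within replicates 4 and 5 (vertical axis, 2 libraries per group) against that within replicates 1 to 3 (horizontal axis, 3 libraries per group) for the 40 replication genes, coloured by complex, with a dashed line where both are equal. Most points lie below the line, with medians of -0.39 and -0.11, and *Orc6* and *Gins4* lie near or above it.

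The other genes of the pathway made up 5 lists of 60 tested genes. Of these 60, 6 fell and none rose by edgeR (3.48% and 4.42% of all genes), with 26 lower and 4 higher at an unadjusted p under 0.05 (12.1% and 11.8%) and 7 lower and 1 higher by DESeq2 (4.43% and 6.22%). The median log2 fold change was -0.15. Nucleotide supply held 3 of the 6 among its 7 genes, namely *Dut*, which removes dUTP (log2 fold change -0.30), *Dck*, a salvage kinase (-0.31), and *Tyms*, which makes dTMP (-0.24, adjusted p = 0.0496 from edgeR). Of 8 genes of replication-coupled chromatin, *Chaf1b*, a subunit of the histone chaperone CAF-1, fell (log2 fold change -0.44, standard error 0.08, adjusted p = 0.00480 from edgeR) and its partner *Chaf1a* had -0.01. Of 18 further fork and polymerase genes, *Dscc1* of the alternative clamp loader fell (log2 fold change -0.45, standard error 0.12, adjusted p = 0.0314 from edgeR). Of 17 genes that control S phase entry, *Ccne2*, a cyclin E, fell (log2 fold change -0.34, standard error 0.09, adjusted p = 0.0270 from edgeR). The E2F genes *E2f1* to *E2f8* lay between -0.31 (*E2f5*) and 0.18 (*E2f8*) without a call. None of 10 initiation regulators was called by edgeR or DESeq2, with 6 lower and 1 higher at an unadjusted p under 0.05 and *Wdhd1* at -0.32. The count of 6 fell to 2, 2, 1 and 1 without control replicates 1, 2, 4 and 5 and to 1, 2 and 1 without *Dis3* cKO replicates 2, 3 and 5. It was 33 within replicates 4 and 5 alone (2 libraries per group), where 11.7% of all genes were called lower.

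Levels of cell type markers also moved between the libraries, and their part in the results above was not tested. Of 15 germ cell markers tested, 6 fell (*Dazl*, *Mael*, *Sohlh1*, *Rhox13*, *Tex101* and *Stra8*), where 3.48% of all genes did. The median log2 fold change over the 15 was -0.48, at -0.20 within replicates 1 to 3 and -0.87 within replicates 4 and 5. Markers without a call ran from -0.67 (*Dnd1*) to 0.09 (*Nanos2*). Among them *Ddx4* had -0.26, *Zbtb16* -0.23, *Kit* -0.08, *Sall4* -0.08 and *Gfra1* 0.07. The summed normalized count of the 16 germ cell markers was 23400.0 to 28339 in control and 16142 to 21577 in *Dis3* cKO libraries, with no marker at 0 in all libraries and *Dppa3* too low to be tested. Sertoli cell markers summed to 145000.0 to 154540.0 in control and 151050.0 to 194890.0 in *Dis3* cKO, with 1 of 11 (*Rhox8*) called higher. The 8 peritubular myoid and stromal markers, of which *Myh11* was called higher, had a median log2 fold change of -0.10 within replicates 1 to 3 and 0.52 within replicates 4 and 5, and sums of 166950.0 to 263220.0 and 202830.0 to 356090.0. Leydig cell sums overlapped between the groups, with *Cyp17a1* called lower, and *Cdh5* was called higher among 5 endothelial markers. The 40 replication genes together summed to 101130.0 to 113080.0 in control and 90474 to 99187 in *Dis3* cKO, without overlap.

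The second table of the series counted reads antisense to a gene over the 3 kb upstream of its start, where promoter upstream transcripts (PROMPTs) arise. PROMPTs are short-lived RNAs that the nuclear exosome is known to degrade. A region was counted for 15 of the 40 genes, and 14 of these had a mean of at least 3 counts and were tested. In *Dis3* cKO testes 10 of the 14 rose and none fell, whereas 13.6% of all 12345 regions tested were called higher and 0.0486% lower. The filter took the mean over both groups, and *Mcm2* and *Rfc2*, with fewer than 3 counts per control library, passed it through the *Dis3* cKO libraries. Of the other 12, a subset taken after the values were seen, 9 rose, against 14.4% of all regions with at least 3 counts per control library on average. Every *Dis3* cKO library lay above every control library for 8 of the 14 (11.1% of all regions tested). DESeq2 called 10 of them higher as well (22.4% of all regions) and none lower. With a mean of at least 10 counts required, edgeR called all 9 member regions then tested higher, where 49.9% of all 3216 regions then tested were. These 9 included *Mcm5*, which was not called at a mean of at least 3 counts (adjusted p = 0.0343 and 0.0976 from edgeR). The share of all regions called higher thus depended strongly on the read count required.

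Numbers of reads were small, and they are given as counted. The PROMPT of *Pold3* (region chr7:100121566-100124565, minus strand gene) had 14, 12, 6, 5 and 5 reads in control replicates 1 to 5 and 63, 36, 29, 33 and 23 in *Dis3* cKO replicates 1 to 5 (log2 fold change 2.40, standard error 0.43, adjusted p = 1.13e-06 from edgeR). That of *Pola2* (region chr19:5964203-5967202, minus strand gene) had 5, 6, 2, 10 and 5 reads in control replicates 1 to 5 and 41, 32, 37, 19 and 15 in *Dis3* cKO replicates 1 to 5 (log2 fold change 2.60, standard error 0.50, adjusted p = 5.48e-06 from edgeR). That of *Pold2* (region chr11:5878293-5881292, minus strand gene) had 6, 3, 5, 13 and 1 reads in control replicates 1 to 5 and 33, 32, 18, 19 and 30 in *Dis3* cKO replicates 1 to 5 (log2 fold change 2.47, standard error 0.51, adjusted p = 3.53e-05 from edgeR). In each of these 3 every *Dis3* cKO library exceeded every control library, and *Pold3* and *Pola2* had gene log2 fold changes of -0.25 and -0.18 while *Pold2* had 0.20. The PROMPT of *Gins3* had 4, 4, 3, 0 and 5 reads in control replicates 1 to 5 and 42, 17, 14, 17 and 9 in *Dis3* cKO replicates 1 to 5 (log2 fold change 2.88, standard error 0.62, adjusted p = 6.50e-05 from edgeR). The region upstream of *Rfc1*, which had the most reads, had 18, 42, 36, 44 and 28 reads in control replicates 1 to 5 and 62, 98, 92, 53 and 61 in *Dis3* cKO replicates 1 to 5 (log2 fold change 1.37, standard error 0.30, adjusted p = 0.000129 from edgeR). These too were apart between the groups. At *Gins4* there were 18, 12, 11, 7 and 7 reads in control replicates 1 to 5 and 24, 37, 32, 25 and 20 in *Dis3* cKO replicates 1 to 5 (log2 fold change 1.57, standard error 0.45, adjusted p = 0.00547 from edgeR). At *Mcm6*, whose promoter letters are printed above, there were 10, 5, 7, 5 and 5 reads in control replicates 1 to 5 and 28, 18, 15, 17 and 18 in *Dis3* cKO replicates 1 to 5 (log2 fold change 1.85, standard error 0.55, adjusted p = 0.00860 from edgeR). Groups did not overlap at either gene, and *Gins4* and *Rpa2* were the 2 genes whose own RNA fell while the PROMPT rose. At *Rpa2* there were 12, 12, 9, 7 and 1 reads in control replicates 1 to 5 and 33, 19, 24, 10 and 14 in *Dis3* cKO replicates 1 to 5 (log2 fold change 1.56, standard error 0.52, adjusted p = 0.0240 from edgeR). At *Mcm10* there were 8, 9, 2, 0 and 0 reads in control replicates 1 to 5 and 19, 23, 18, 2 and 12 in *Dis3* cKO replicates 1 to 5 (log2 fold change 2.17, standard error 0.68, adjusted p = 0.0133 from edgeR). Groups overlapped at *Rpa2* and *Mcm10*. At *Rfc2* there were 2 reads in all control libraries together and 40 in all *Dis3* cKO libraries (adjusted p = 0.00527 from edgeR), a ratio of 24 with an exact 95% interval of 6.23 to 205 that covers counting error only.

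*Mcm5*, *Mcm2*, *Rfc3* and *Pola1* were tested without a call, with PROMPT log2 fold changes of 1.01, 1.48, 0.51 and 0.38. That of *Mcm5* was called higher under some alternatives. These were the mean of at least 10 counts, without *Dis3* cKO replicate 5, and replicates 1 to 3 alone (adjusted p = 0.0343, 0.0465 and 0.0418 from edgeR). *Mcm2*, *Rfc3* and *Pola1* gained no call under any alternative. *Prim1*, with 6 reads in control and 10 in *Dis3* cKO libraries, was not tested. The number called was 10 within replicates 1 to 3 alone and 1 within replicates 4 and 5 alone, where 10.8% and 3.85% of all regions were called higher, and 7 to 11 when 1 library was left out. The number in replicates 4 and 5 was counted with 2 libraries per group, and the PROMPT log2 fold changes there were not smaller throughout. Within replicates 4 and 5 and within replicates 1 to 3 these were 2.71 and 2.28 at *Pold3*, 1.93 and 1.43 at *Gins4*, 2.04 and 1.75 at *Mcm6* and 1.80 and 1.49 at *Rpa2*, and 2.59 and 3.01 at *Gins3*, 2.04 and 2.81 at *Pold2*, 1.42 and 3.33 at *Pola2* and 0.92 and 1.65 at *Rfc1*. The call of *Mcm6* was lost without *Dis3* cKO replicate 1, that of *Rpa2* without control replicate 5 or *Dis3* cKO replicate 1 or 3, and that of *Mcm10* without control replicate 4 or *Dis3* cKO replicate 1, 2 or 3 (adjusted p up to 0.0579, 0.185 and 0.0679 from edgeR).

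**Figure D5:**
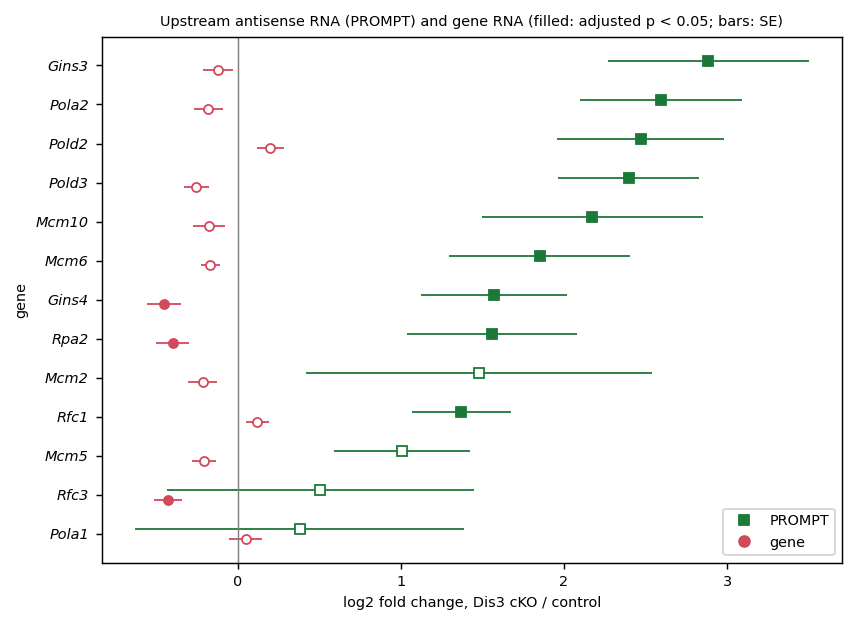
Log2 fold change of *Dis3* cKO over control (horizontal axis) of the PROMPT (green squares) and of the gene itself (red circles) for 13 replication genes with a tested PROMPT, with bars for the standard error and filled symbols for an adjusted p under 0.05 (n = 5 libraries per group). *Rfc2* is left out for its 2 control reads. All squares lie above 0, and the filled circles, *Gins4*, *Rpa2* and *Rfc3*, lie below 0.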

How the data were processed

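RNA of 5 control and 5 *Dis3* cKO P4 testis samples was sequenced with a strand-selecting kit that depletes targeted transcripts. Trimming with cutadapt, alignment with HISAT2 and counting with featureCounts 1.6.4 were done by the authors, and the deposited tables hold raw read counts per gene (sense strand) and per PROMPT region (opposite strand), with no normalization. The file header names GENCODE M18 and the processing notes GRCm38, whose positions are printed here, whereas the methods name GRCm39. Groups came from the labels. Symbols came from GENCODE M39 by gene ID. *Ctps* of the nucleotide list was not matched.

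Tests used R 4.3.3 with edgeR 4.0.16 (quasi-likelihood, TMM factors, filterByExpr with a min.count of 10, no other term), two-sided, with an adjusted p under 0.05 (Benjamini-Hochberg over all genes or regions tested). PROMPTs needed a mean of at least 3 counts and took library sizes and TMM factors from the gene counts. Standard errors, in the text and as bars of the fold change figures, are approximate. They were derived from the log2 fold change and the F statistic of edgeR's test. DESeq2 1.42.0 was an alternative. Within a group, no pair of libraries was as close as counting error allows (chi-square per degree of freedom at least 4.11). At the depths given, spread between libraries and not counting limited the genes, while most PROMPTs had under 50 reads per library.

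All 40 members are named, with values per library for those past the threshold and, per complex, for the one with the lowest adjusted p. *Mcm4* and *Mcm10* have such values as well, chosen after they were seen, as do the PROMPTs past the threshold. Pathway genes are named from the 4 with the lowest adjusted p of each list, and *Chaf1a* and the E2F genes in addition. The members, the other lists and the division of replicates were chosen with earlier results of these data known. Other data of the study were not used here.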

Additional observations from a re-analysis of the deposited data

Results flagged for a closer look

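In 7 of 80 groups of 5 libraries (2 per gene), 1 library stood far from the others by Dixon's test at the 95% level, which chance alone does in about 5% of groups. High values were those of *Orc2* in *Dis3* cKO replicate 1 (1656 normalized counts), *Pold3* in *Dis3* cKO replicate 1 (2940.0), *Pold1* in control replicate 3 (1622) and *Pole2* in control replicate 5 (587). Low values were those of *Gins3* in control replicate 3 (400.6), *Pold2* in *Dis3* cKO replicate 4 (1451) and *Rfc2* in *Dis3* cKO replicate 1 (1350.0). Of these genes only *Orc2* had passed the test between genotypes.

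The effect of genotype differed between replicates 4 and 5 and replicates 1 to 3 for 4 genes, by the interaction test in edgeR. The log2 fold change in replicates 4 and 5 minus that in replicates 1 to 3 was -0.66 for *Orc1* (adjusted p = 0.0192), -0.51 for *Rpa2* (adjusted p = 0.0227), -0.48 for *Mcm10* (adjusted p = 0.0307) and -0.38 for *Mcm4* (adjusted p = 0.0192). The adjusted p of each rose above 0.05 when any of several single libraries was left out, and reached 0.112, 0.140, 0.160 and 0.104. The division into sets was itself made from these data.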

How the results depend on the processing

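Of 198 values of the 11 called genes under 18 alternatives, 167 kept direction and call and 31 lost the call with the same direction. Of 522 values of the 29 other members, 461 stayed the same, 54 gained a call and 7 turned direction without a call. Those were *Mcm3*, *Mcm4*, *Mcm10* and *Rpa3* within replicates 1 to 3 alone (0.019, 0.026, 0.0047 and 0.062 on the log2 scale) and *Pola1* without control replicate 2 (-0.0010; up to 0.11 with other libraries left out), within replicates 4 and 5 alone (-0.091) and without the length trend (-0.017). The PROMPT of *Rfc3* turned within replicates 1 to 3 alone (-0.066). The cause was not tested.

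Against 11 members lower and 0 higher, leaving out 1 library gave 7 (without control replicate 5) to 13 lower and 0 to 2 higher (2, *Pold2* and *Pole*, without *Dis3* cKO replicate 4). DESeq2 gave 11 and 1, size factors by RLE 11 and 1, no filter 12 and 0 (1.63% and 1.67% of the genes then tested), the replicate set as a term 23 and 1, replicates 1 to 3 alone 3 and 1, replicates 4 and 5 alone 32 and 0, and removal of the length trend 7 and 0. Against 6 other pathway genes lower and 0 higher, leaving out 1 library gave 1 to 7 and 0 to 1, the set as a term 14 and 1, replicates 1 to 3 alone 1 and 2, replicates 4 and 5 alone 33 and 1, and DESeq2 7 and 1. The interaction called 4 members, and 0 to 9 when 1 library was left out. PROMPTs called higher numbered 10, and 1 within replicates 4 and 5 alone. *Dis3* kept its call throughout.

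Same-numbered control and *Dis3* cKO libraries correlated at 0.083 to 0.183 in their deviations from the group means, 3 of the 5 best with their own number, and the labels do not pair them. With the replicate number as a block, 17 members were lower (6.67% of all genes) and 1 higher (7.43%), and 12 other pathway genes were lower. The 6 gained were *Orc4*, *Orc5*, *Cdt1*, *Pold3*, *Rfc4* and *Pcna*, and the higher one was *Pole*. With TMM factors and no further term, edgeR called no member whose log2 fold change was smaller in size than that of *Lig1* (-0.27) over all 10 libraries.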
